A study of Homo sapiens with 12 samples.

Results

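The SRSF, HNRNP and SNRP genes encode 3 large groups of pre-mRNA splicing proteins, and their transcripts were followed here in single Nalm-6 leukemia cells. Members were taken by name: every row of the gene annotation whose symbol starts with SRSF, HNRNP or SNRP, without symbols that end in P and a number (pseudogene names) and without symbols that hold a hyphen or a dot. The rule gave 46 of the 57905 annotated genes, namely 12 SRSF, 22 HNRNP and 12 SNRP genes. No measured value entered the naming rule, but the genes were chosen with earlier results of these data known.

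Nalm-6 is a human B cell precursor acute lymphoblastic leukemia line. The RUNX1-labelled library came from Nalm-6 cells transduced with a Tet-On regulator and a pLVX response vector holding RUNX1 cDNA, induced with 500 ng/ml doxycycline for 72 h. The control library is labelled 72 h and empty vector, its title names DMSO, and doxycycline is not among its labels; the transgene, the vector, the inducer and the vehicle cannot be told apart in the comparison. Whether the control cells carried the vector was not settled by the sources used here. Each group is 1 library, so no difference between them has a replicate check, no test was made, and the intervals given below cover counting error only.

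SR proteins, encoded by the SRSF genes, bind exons through RNA recognition motifs and recruit the splicing machinery through domains rich in arginine and serine. Heterogeneous nuclear ribonucleoproteins (hnRNPs) coat nascent transcripts and often oppose exon inclusion, and many also act in mRNA export, stability and translation. The SNRP genes encode the ring of Sm proteins shared by the spliceosomal small nuclear ribonucleoproteins (snRNPs) and proteins particular to the U1 and U2 snRNPs, which recognize the 5′ splice site and the branch site.

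After filtering there were 4800 cells with 75350615 unique molecular identifiers (UMIs, 1 per captured transcript) in the RUNX1-labelled library against 5598 cells with 75754137 UMIs in the control, and 12 barcode sequences occurred in both. RUNX1 itself had 2288 UMIs in the RUNX1-labelled library against 5282 in the control, or 30.4 UMIs per 1000000 (CPM) in the RUNX1-labelled library against 69.7 in the control, a log2 ratio of -1.20 (95% interval -1.27 to -1.13) that runs against the label. The 3′ reads of a cDNA insert need not be counted under the gene, so this value is no check of the induction. Of 12 B cell precursor markers in the annotation, 11 reached 10 CPM in the RUNX1-labelled library against 12 in the control. The 8 erythroid and platelet markers stayed under 10 CPM, and of 11 myeloid markers 4 were at 0 in each library and FCER1G alone passed it, at 138 CPM in the RUNX1-labelled library against 0.09 in the control. The summed myeloid markers came to 143 CPM in the RUNX1-labelled library against 3.95 in the control, and the summed T cell markers, of which LCK or ZAP70 reached 10 CPM in 1 library each, to 63.7 CPM in the RUNX1-labelled library against 29.2 in the control. Mitochondrial transcripts took 13.1% of UMIs in the RUNX1-labelled library against 9.45% in the control, and ribosomal protein transcripts 32.3% in the RUNX1-labelled library against 27.4% in the control. Cell cycle phases also differed: 57.2% of 4188 cells called in the RUNX1-labelled library were in G1 and 8.62% of 5185 in the control. The part of these differences in the results below was not tested, but the comparison of the members is also given within G1 cells and within S or G2/M cells.

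The 46 genes together held 1.016% of all UMIs in the RUNX1-labelled library (765497 UMIs, 95% binomial interval 1.014 to 1.018%) and 1.519% in the control (1150811 UMIs, 1.516 to 1.522%). The shortfall was spread over many genes. Of the 46 genes, 41 reached 10 CPM in at least 1 library, all 41 of them in both, and 38 of these (92.7%) were lower in the RUNX1-labelled library, against 60.1% of the 7980 genes at the same floor. A log2 ratio of -0.5 or less was found for 19 of the 41, or 46.3%, against 21.4% of all genes. A ratio of 0.5 or more was found for SRSF10 alone, against 13.8% of all genes. The median log2 ratio of the 41 genes was -0.48, and that of all genes was -0.13.

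Level of expression bears on that background. Among the 2860 genes at 50 CPM or more, 30.5% had a log2 ratio of -0.5 or less and the median was -0.28, and 39 of the genes considered here reached that level, 19 of them at -0.5 or less. The choice of scale also moved all genes together. Over all genes the median was -0.26 with TMM factors, 0.14 with totals that leave out mitochondrial and ribosomal protein genes, and 0.09 with mean UMIs per cell. The median of the splicing genes minus that of all genes was -0.36 with plain totals, and -0.35, -0.42 and -0.36 on those 3 scales. The floor moved it more, to -0.21 for genes at 50 CPM or more and -0.51 for genes at 1 CPM or more.

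**Figure D1:**
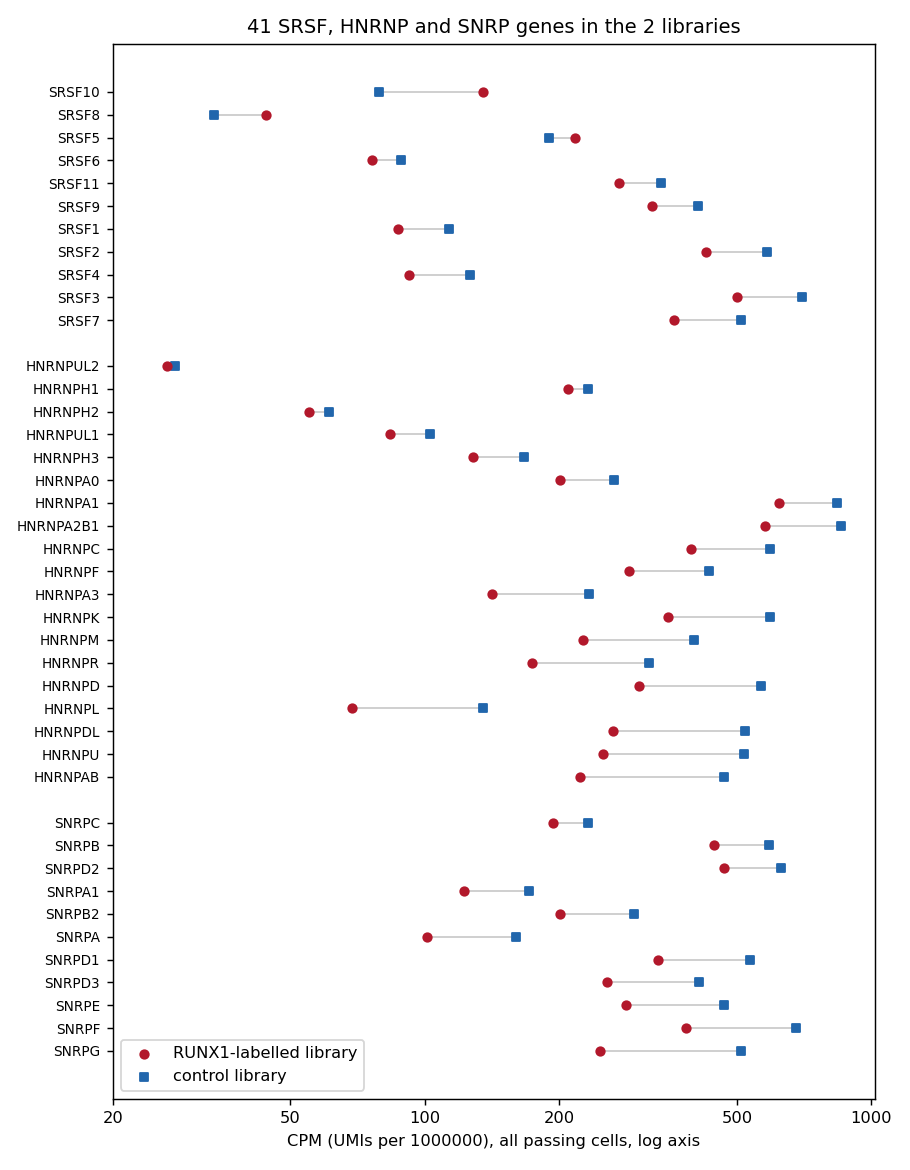
CPM (log axis) of the 41 genes at 10 CPM or more, grouped by family and ordered within each by the ratio of the libraries; circles are the RUNX1-labelled library, squares the control, 1 library each. Circles lie left of squares for 38 genes and right of them for SRSF10, SRSF8 and SRSF5; HNRNPH1, HNRNPH2 and HNRNPUL2 change sides on a per cell or reduced-total scale.

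The SR protein genes differed least. Of 11 measured SRSF genes 8 were lower and 3 higher in the RUNX1-labelled library, where 60.1% of all genes were lower. Their median log2 ratio was -0.34, and 0 of them passed -0.5, against 21.4% of all genes. They held 0.253% of UMIs in the RUNX1-labelled library against 0.317% in the control. The lowest ratios belonged to SRSF7, SRSF3 and SRSF4. SRSF7 (9G8), which shuttles between nucleus and cytoplasm and joins splicing to mRNA export, had 27250 UMIs or 362 CPM in the RUNX1-labelled library and 38587 UMIs or 509 CPM in the control, a log2 ratio of -0.49 (-0.52 to -0.47). SRSF3 (SRp20), the smallest of the family and also an export adaptor, had 37735 UMIs or 501 CPM in the RUNX1-labelled library against 52891 UMIs or 698 CPM in the control, a ratio of -0.48 (-0.50 to -0.46). SRSF4 (SRp75), the longest classical SR protein, had 6955 UMIs or 92.3 CPM in the RUNX1-labelled library against 9568 UMIs or 126 CPM in the control, a ratio of -0.45 (-0.50 to -0.41). These 3 genes thus sat just inside the limit of 0.5, and the interval of SRSF7 crossed it.

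SRSF10 stood at the other end. Its product (SRp38, FUSIP1) is a relative of the SR proteins that represses splicing when it is dephosphorylated, as in mitosis and after heat shock. It had 10177 UMIs or 135 CPM in the RUNX1-labelled library against 5974 UMIs or 78.9 CPM in the control, a log2 ratio of 0.78 (0.73 to 0.82). SRSF8, which arose as a retrotransposed copy of SRSF2, had 3319 UMIs or 44.05 CPM in the RUNX1-labelled library against 2560 UMIs or 33.8 CPM in the control, a ratio of 0.38 (0.31 to 0.46). Reads may be split between such copies, so the SRSF8 value is uncertain. SRSF5 (SRp40) had 16380 UMIs or 217 CPM in the RUNX1-labelled library against 14383 UMIs or 189.9 CPM in the control, a ratio of 0.20 (0.16 to 0.23). SRSF10, SRSF8 and SRSF5 were the only members above 0, and each stayed above 0 on all 5 scales used, in all cells, in S or G2/M cells and in G1 cells.

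The remaining SRSF genes were moderately lower. They were SRSF2 (SC35), which marks nuclear speckles, at -0.45, SRSF1 (ASF/SF2), the founding member of the family, at -0.38, SRSF9 (SRp30c) at -0.34, SRSF11 (p54) at -0.32 and SRSF6 (SRp55) at -0.22. SRSF12 was nearly undetected, with 6 UMIs in the RUNX1-labelled library against 2 in the control.

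The lowest single ratio was that of an hnRNP gene, though the SNRP median of -0.67 was below the hnRNP median. All 19 measured hnRNP genes lay below 0, against 60.1% of all genes, and their median log2 ratio was -0.60. At -0.5 or less were 12 of them (63.2%), against 21.4% of all genes and 30.5% of those at 50 CPM or more. On the per cell and reduced-total scales HNRNPH1, HNRNPH2 and HNRNPUL2 turned above 0. Together the HNRNP genes held 0.459% of UMIs in the RUNX1-labelled library against 0.734% in the control. HNRNPAB, an hnRNP of the A/B type that binds transcripts in transport and lies on hg19 at chr5:177631534-177638164 on the forward strand, had 16746 UMIs or 222 CPM in the RUNX1-labelled library against 35458 UMIs or 468 CPM in the control. Its log2 ratio was -1.07 (-1.10 to -1.05), the lowest of all 41. HNRNPU (scaffold attachment factor A), which binds nuclear RNA and chromatin, had 18923 UMIs or 251 CPM in the RUNX1-labelled library against 39367 UMIs or 519.7 CPM in the control, a ratio of -1.05 (-1.07 to -1.02). HNRNPDL, a close relative of HNRNPD, had 19874 UMIs or 264 CPM in the RUNX1-labelled library against 39556 UMIs or 522 CPM in the control, a ratio of -0.99 (-1.01 to -0.96). HNRNPAB and HNRNPU, with SNRPG among the SNRP genes, were the 3 of 41 members lower by 2-fold or more, against 4.10% of all genes.

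Below -0.5 there were 9 further hnRNPs. HNRNPL, which binds CA repeats and silences exons of the PTPRC (CD45) transcript in lymphocytes, had a log2 ratio of -0.98, HNRNPD (AUF1), which promotes decay of AU-rich mRNAs, -0.90, and HNRNPR -0.87. HNRNPM was at -0.82, the poly(C) binding HNRNPK at -0.76, HNRNPA3 at -0.73, HNRNPF at -0.60, the U-tract binding HNRNPC at -0.59 and HNRNPA2B1 at -0.57. HNRNPA1, a general exon silencer, HNRNPA0, HNRNPH3 and HNRNPUL1 lay between -0.43 and -0.30. The exons of 11 of the 46 members overlap another annotated gene on the same strand, among them HNRNPL, SNRPA1 and SNRPB, or a microRNA gene, as in HNRNPK, HNRNPA3 and SRSF2, and their counts carry that limit.

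The 3 highest hnRNPs differed little. HNRNPUL2, a relative of HNRNPU, had 1992 UMIs or 26.4 CPM in the RUNX1-labelled library against 2085 UMIs or 27.5 CPM in the control, a log2 ratio of -0.06 whose interval held 0 (-0.15 to 0.03). HNRNPH1 and its X-linked paralog HNRNPH2, which bind runs of G, had ratios of -0.15 (-0.18 to -0.12) and -0.15 (-0.21 to -0.09). HNRNPH1 had 15786 UMIs or 209.5 CPM in the RUNX1-labelled library against 17562 UMIs or 232 CPM in the control. HNRNPH2 had 4146 UMIs or 55.0 CPM in the RUNX1-labelled library against 4630 UMIs or 61.1 CPM in the control. The transcripts of HNRNPH1 and HNRNPH2 are near copies, and HNRNPH2 and HNRNPUL2 also overlap read-through genes, so reads between them are uncertain. HNRNPA1L2 and HNRNPCL1, intronless copies of HNRNPA1 and HNRNPC, and HNRNPLL stayed under the floor, with 469, 2 and 14 UMIs in the RUNX1-labelled library and 675, 1 and 0 UMIs in the control.

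Every measured SNRP gene was lower in the RUNX1-labelled library, against 60.1% of all genes. The 11 genes had a median log2 ratio of -0.67, and they held 0.304% of UMIs in the RUNX1-labelled library against 0.468% in the control. At -0.5 or less were 7 of them (63.6%), against 21.4% of all genes and 30.5% of those at 50 CPM or more. Of the 7 genes of the Sm ring, which is loaded onto snRNA in the cytoplasm, 5 passed -0.5 (71.4%), with a ring median of -0.68. SNRPG had 18576 UMIs or 247 CPM in the RUNX1-labelled library against 38621 UMIs or 509.8 CPM in the control, a ratio of -1.05 (-1.07 to -1.02). SNRPF had 28907 UMIs or 384 CPM in the RUNX1-labelled library against 51472 UMIs or 679 CPM in the control, a ratio of -0.82 (-0.85 to -0.80). SNRPE had 21298 UMIs or 283 CPM in the RUNX1-labelled library against 35508 UMIs or 469 CPM in the control, a ratio of -0.73 (-0.75 to -0.71). SNRPE, SNRPF and SNRPG, whose proteins enter the ring as one subcomplex, were thus the 3 lowest SNRP genes.

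SNRPD3 and SNRPD1 followed at -0.68 each. SNRPB, the gene of SmB and SmB′, and SNRPD2 were the highest of the ring. SNRPB had 33387 UMIs or 443 CPM in the RUNX1-labelled library against 44710 UMIs or 590.2 CPM in the control, a log2 ratio of -0.41 (-0.43 to -0.39). SNRPD2 had 35217 UMIs or 467 CPM in the RUNX1-labelled library against 47527 UMIs or 627 CPM in the control, a ratio of -0.42 (-0.44 to -0.40). The 7 proteins are present in equal number in the ring, while the ratios of their transcripts spanned -1.05 to -0.41.

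Of the 4 genes for proteins particular to 1 snRNP, all lay below 0, against 60.1% of all genes. SNRPC (the U1 snRNP protein C), which stabilizes pairing of U1 with the 5′ splice site, had 14618 UMIs or 194 CPM in the RUNX1-labelled library and 17553 UMIs or 232 CPM in the control, a log2 ratio of -0.26 (-0.29 to -0.22), the highest of the family. SNRPA, the other member that encodes a U1 protein, was at -0.67. The U2 proteins SNRPB2 and SNRPA1, which bind U2 as a pair, were at -0.55 and -0.48. SNRPN, the imprinted SmB relative expressed mainly in brain, had 341 UMIs in the RUNX1-labelled library against 511 in the control, or 4.53 CPM in the RUNX1-labelled library against 6.75 in the control, and stayed under the floor.

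RUNX1, the factor named in the label, binds the hexamer TGTGGT, and the promoters of the members were searched for it. Promoter sequences ran from 250 bases before to 50 bases after each start in RefSeq on GRCh38.p14. They were matched by symbol for 43 of the 46 genes, some with several starts. A gene was counted if any of its promoters held the motif, while the share of all promoters counts each promoter singly. Genes with several starts thus had more chances of a match, so these shares are unlike measures, here and for the motifs below. The hexamer, on either strand, was in a promoter of 5 of these 43 genes (11.6%), SNRPG, SNRPF, SNRPD2, HNRNPA0 and SRSF6, and in 13.1% of all 35116 promoters. The matches of the SNRP genes are shown, SNRPG and SNRPF being among the lowest ratios and SNRPD2 among the highest of the Sm ring, 5′ to 3′ on the strand of the gene, with the hexamer or its reverse complement in capitals; they lie at chr2:70293412-70293441 (reverse strand), chr12:95858717-95858746 (forward) and chr19:45692093-45692122 (reverse).
SNRPG: ctcgcgcgtcggTGTGGTtacagccggcag
SNRPF: tctaggaaggacACCACAtttaaaaacacc
SNRPD2: catctgcccccgTGTGGTtctgactggccg

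The E-box CACGTG, a site of MYC and USF proteins that reads the same on both strands, was in a promoter of 7 of the 43 genes (16.3%), all of them hnRNP genes, and in 7.26% of all promoters. These 7 genes lay on both sides of the hnRNP median of -0.60: HNRNPDL, HNRNPD, HNRNPM and HNRNPA3 at -0.99, -0.90, -0.82 and -0.73, and HNRNPH3, HNRNPUL1 and HNRNPH2 at -0.38, -0.30 and -0.15. All matches that lie upstream of a start with 12 bases on each side are shown, with the E-box in capitals, from the lowest ratio to the highest. They lie at chr4:82430364-82430393 (reverse), chr4:82430572-82430601 (reverse), chr4:82374001-82374030 (reverse), chr19:8444921-8444950 (forward), chr2:177212711-177212740 (forward), chr10:68331631-68331660 (forward) and chrX:101408168-101408197 (forward).
HNRNPDL: agaggcccggggCACGTGcagaaaggagcc
HNRNPDL, another start: ggagcccgagacCACGTGggcaggaaaagg
HNRNPD: gcgctctcgcgtCACGTGaccgggacgcgc
HNRNPM: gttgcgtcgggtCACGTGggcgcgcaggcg
HNRNPA3: cggaaaacgcgtCACGTGacgactggcccc
HNRNPH3: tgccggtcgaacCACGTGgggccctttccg
HNRNPH2: ccgagagttgctCACGTGaccgagatctca
Of 2 further motifs searched, the CCAAT box (CCAAT, either strand) was in a promoter of 25 of the 43 genes (58.1%) and in 34.6% of all promoters, and the ETS core CCGGAAG (either strand) in 12 (27.9%) and in 10.3% of all promoters. The median log2 ratio of the measured genes with a match and of the others with a promoter was -0.42 and -0.49 for the RUNX1 hexamer, -0.73 and -0.48 for the E-box, -0.58 and -0.43 for the CCAAT box and -0.48 and -0.49 for the ETS core; these splits were not tested. The shares of genes count any of several promoters and those of all promoters count each singly, so they do not measure enrichment. A letter match is a description of the promoter and says nothing of binding in these cells.

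The libraries held different mixtures of cell cycle phases, so the same comparison was made within each state. Phases were called after thinning each cell to 8000 UMIs, and no member belongs to the phase gene lists. Within S or G2/M cells, 1792 in the RUNX1-labelled library against 4738 in the control, the 46 genes held 1.187% of UMIs in the RUNX1-labelled library against 1.531% in the control. Of 41 measured members 11 had a log2 ratio of -0.5 or less, or 26.8%, against 12.9% of all genes, and 0 had a ratio of 0.5 or more, against 6.54% of all genes. Their median was -0.30 and that of all genes -0.14, while with mean UMIs per cell both turned above 0, to 0.26 for the members and 0.42 for all genes. The 8 hnRNPs among the 11 were HNRNPL, HNRNPU, HNRNPDL, HNRNPK, HNRNPAB, HNRNPM, HNRNPD and HNRNPR, and the 3 SNRP genes were SNRPG, SNRPF and SNRPB2. The SRSF median in these cells, -0.13, was close to that of all genes. The shares of all genes here are at the floor of 10 CPM, and they were not counted at a higher floor within a state.

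Within G1 cells, 2396 in the RUNX1-labelled library against 447 in the control, the difference was larger. The G1 cells of the libraries still differed in phase transcripts. The S phase list held 0.090% of their UMIs in the RUNX1-labelled library against 0.177% in the control. The G2/M phase list held 0.105% in the RUNX1-labelled library against 0.172% in the control. The part of this in the values below was not tested. The 46 genes held 0.853% of UMIs in the RUNX1-labelled library against 1.354% in the control. Of 42 measured members 26 had a log2 ratio of -0.5 or less, or 61.9%, against 22.7% of all genes, and SRSF10 alone had a ratio of 0.5 or more, against 19.4% of all genes. The median was -0.63 and that of all genes -0.07. HNRNPU was lowest at -1.27 (203 CPM in G1 cells of the RUNX1-labelled library and 489 in G1 cells of the control), followed by HNRNPA1L2 at -1.19, which rests on 62 UMIs in G1 cells of the control (interval -1.61 to -0.75), SNRPG at -1.17 and HNRNPR at -1.14. Of the 41 genes measured over all cells, 35 were lower in both states (85.4%, against 50.8% of all genes). Over all cells 39 members reached 50 CPM, against 2860 of 7980 genes. The shares of all genes within the states are at the floor of 10 CPM, so they are not at equal level of expression. The difference between the states was not tested.

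Per cell the picture was different, since S or G2/M cells of the RUNX1-labelled library were the deeper ones, with a median of 20312.5 UMIs against 13162 in the control. Mean UMIs of the 46 genes per S or G2/M cell were 249 in the RUNX1-labelled library against 219 in the control, and 32 of the 41 members (78.0%) had more UMIs per cell in the RUNX1-labelled library, against 89.9% of all genes. In G1 cells the means were 120.1 in the RUNX1-labelled library against 153 in the control, and 31 of 42 members (73.8%) had fewer UMIs per cell in the RUNX1-labelled library, against 33.3% of all genes. Across single cells, the share of UMIs in the 46 genes had a 10th percentile, median and 90th percentile of 0.608%, 0.802% and 1.10% in G1 cells of the RUNX1-labelled library and 1.01%, 1.34% and 1.69% in G1 cells of the control. In S or G2/M cells they were 0.968%, 1.18% and 1.42% in the RUNX1-labelled library and 1.31%, 1.53% and 1.76% in the control. Single cells of the libraries therefore overlapped in both states.

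**Figure D2:**
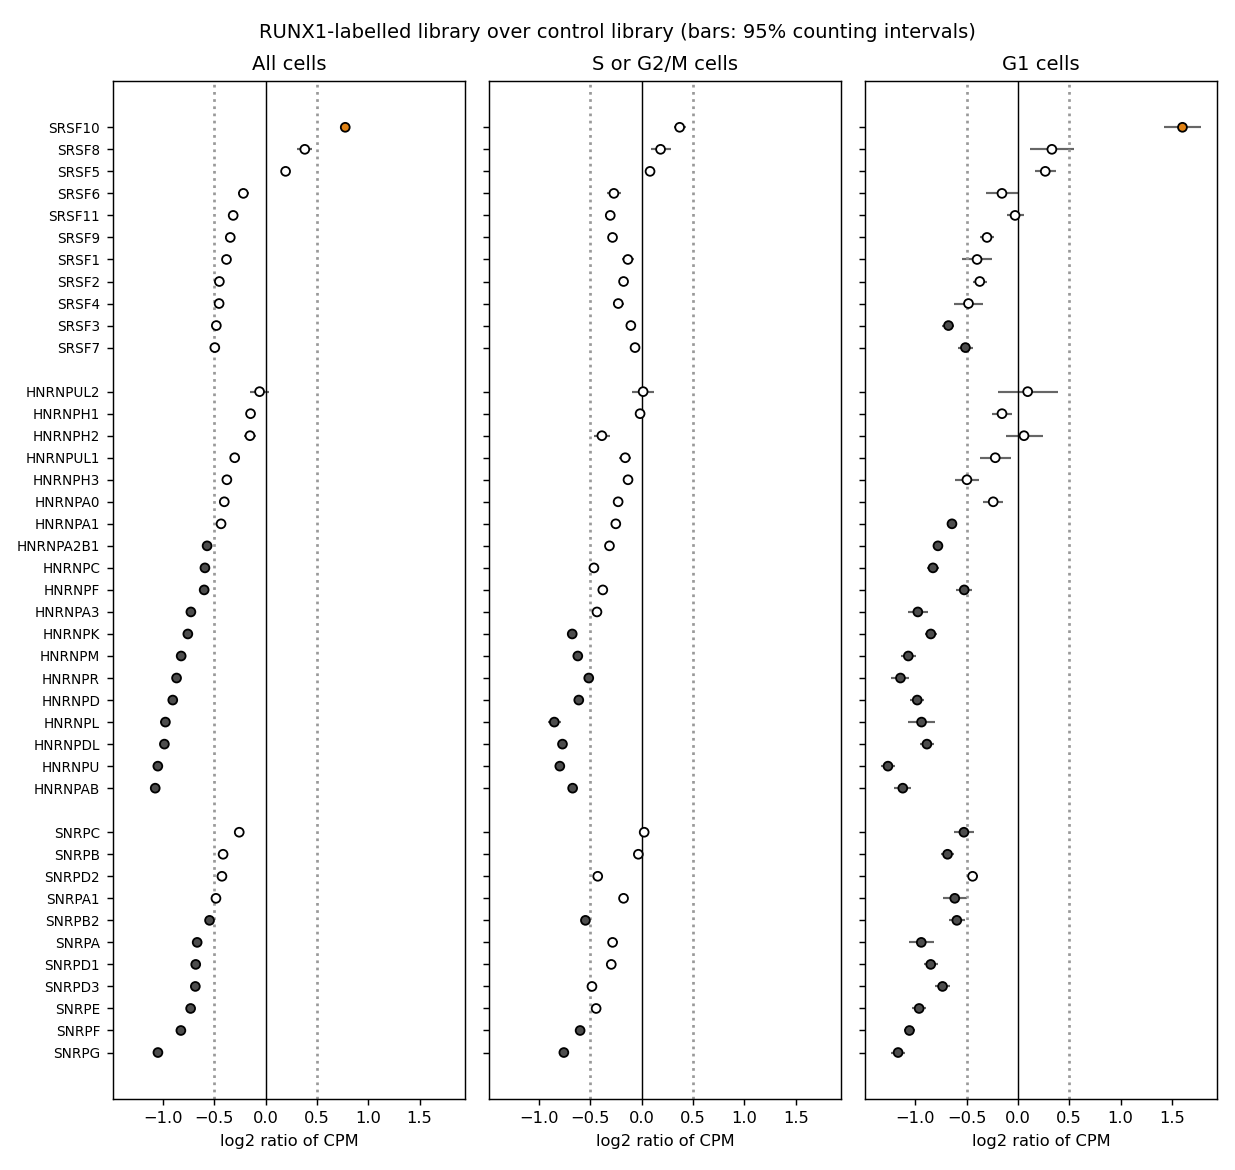
Log2 ratio of CPM (x axis), RUNX1-labelled library over control, of the 41 genes in all cells, in S or G2/M cells and in G1 cells; bars are 95% counting intervals, dotted lines mark 0.5 in size, dark points lie at -0.5 or less and orange points at 0.5 or more. Dark points number 19 in all cells and 11 in S or G2/M cells, SRSF10 is the 1 orange point in all cells and in G1 cells, and as mean UMIs per cell 32 of the 41 genes in S or G2/M cells lie above 0.

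Members responded to the state of the cell in different ways. No member had ratios of opposite sign in S or G2/M and G1 cells with both intervals off 0, against 3.27% of all genes. SNRPC was level in S or G2/M cells, at 235 CPM in the RUNX1-labelled library and 231 in the control, and lower in G1 cells, at 156 CPM in the RUNX1-labelled library against 224 in the control, a log2 ratio of -0.53 (-0.62 to -0.43). SNRPB and SRSF7 behaved alike, with ratios of -0.03 and -0.07 in S or G2/M cells and -0.69 and -0.51 in G1 cells. SNRPD2 and SNRPB2 differed from them: SNRPD2 had -0.43 in S or G2/M cells and -0.44 in G1 cells, and SNRPB2 -0.55 in S or G2/M cells and -0.60 in G1 cells.

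Each library was also compared with itself, S or G2/M cells over G1 cells. In the RUNX1-labelled library 20 of 41 members had a log2 ratio of 0.5 or more, against 15% of all genes, and SRSF10 alone had -0.5 or less, against 13.7% of all genes, with a median of 0.46 and 0.01 over all genes. In the control 3 of 42 members, SRSF7, HNRNPAB and SRSF10, had 0.5 or more, against 11% of all genes, and 0 had -0.5 or less, against 3.15% of all genes, with a median of 0.20 and 0.06 over all genes. The ratio was larger in the RUNX1-labelled library for 34 of the 41 genes measured in both (82.9%), against 49.6% of all genes, which was not tested. Ratios on opposite sides of 0 in the libraries, with both intervals off 0, were found for 4 of the 41, against 5.34% of all genes. Counting intervals narrow with depth, and 39 members reached 50 CPM over all cells, against 2860 of 7980 genes. The shares of members and of all genes within each library are thus not at equal level of expression.

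SRSF7 and HNRNPAB had the largest of these ratios in the RUNX1-labelled library, and in the control they stood with SRSF10 above 0.5. SRSF7 was at 499 CPM in S or G2/M cells and 229.8 in G1 cells of the RUNX1-labelled library, a log2 ratio of 1.12 (1.08 to 1.16). In the control it was at 522 CPM in S or G2/M cells and 328 in G1 cells, a ratio of 0.67 (0.60 to 0.74). The levels of SRSF7 in S or G2/M cells thus lay close together in the libraries, and those in G1 cells apart.

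SRSF10 ran in opposite directions. In the RUNX1-labelled library it was at 105.0 CPM in S or G2/M cells and 157 in G1 cells, a log2 ratio of -0.58 (-0.64 to -0.52). In the control it was at 81.3 CPM in S or G2/M cells and 51.7 in G1 cells, a ratio of 0.65 (0.47 to 0.84), which rests on 261 UMIs of 447 G1 cells. G1 cells of the RUNX1-labelled library thus had the highest SRSF10 level of the 4 sets and G1 cells of the control the lowest. SRSF8 was higher in G1 cells in both libraries, with ratios of -0.46 (-0.57 to -0.36) in the RUNX1-labelled library and -0.32 (-0.52 to -0.10) in the control.

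**Figure D3:**
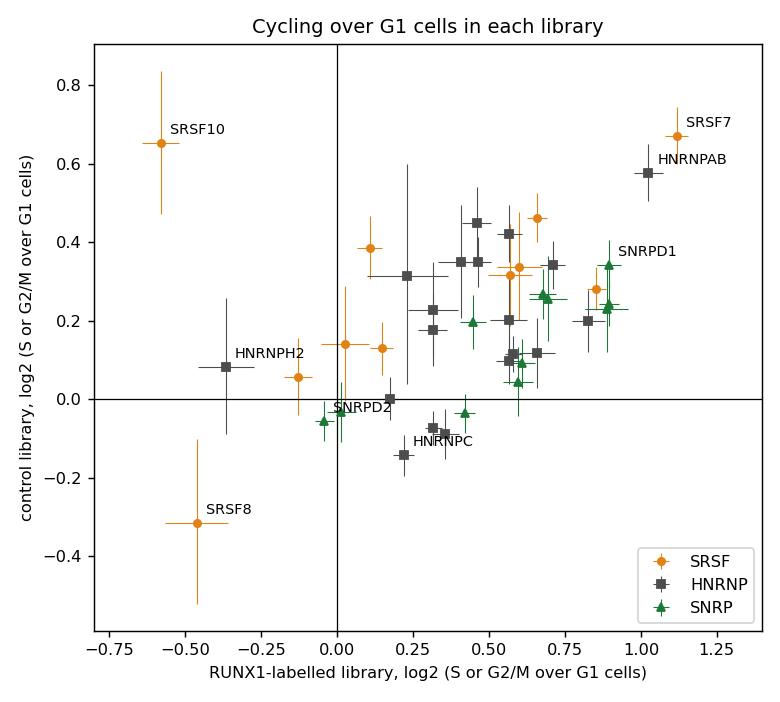
Log2 ratio of CPM in S or G2/M cells over G1 cells for the 41 genes, RUNX1-labelled library on the x axis and control on the y axis, colored by family, with 95% counting intervals as bars. Most genes lie to the right of 0, and SRSF7 and HNRNPAB lie at the upper right. SRSF10 lies farthest to the upper left, at -0.58 in the RUNX1-labelled library against 0.65 in the control. HNRNPH2 (-0.37 in the RUNX1-labelled library against 0.08 in the control) and SRSF5 (-0.13 against 0.06) lie in the same quadrant.

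A split into called phases is coarse, so cells were also placed in bins by the percent of their UMIs in the S and G2/M phase gene lists. A bin with under 20 cells of a library was left out for that library. In the RUNX1-labelled library the share of the 46 genes was 0.797% in the lowest bin (under 0.25%, 2559 cells), 1.06% in the next and between 1.19% and 1.22% in the 4 bins above 0.5%. In the control it was 1.15% in the lowest bin (162 cells), 1.396% in the next and between 1.49% and 1.56% in the 5 bins above. In each of the 6 bins with 20 or more cells of each library the share was lower in the RUNX1-labelled library. The binomial intervals did not overlap there. Mitochondrial transcripts took 11.3 to 13.9% of UMIs per bin in the RUNX1-labelled library against 9.07 to 11.5% in the control, and their part was not tested.

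The families followed the bins differently. The SRSF share was nearly equal in the bin from 0.25 to 0.5%, at 0.251% in the RUNX1-labelled library against 0.261% in the control, while the HNRNP share there was 0.475% in the RUNX1-labelled library against 0.688% in the control. The SNRP share peaked in the bin from 0.5 to 0.75%, at 0.379% in the RUNX1-labelled library against 0.496% in the control. In the bin from 1.5 to 2% it was 0.341% in the RUNX1-labelled library against 0.431% in the control. In both libraries the SNRP share was thus lower in cells with most phase transcripts than at its peak, and the HNRNP share was not.

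**Figure D4:**
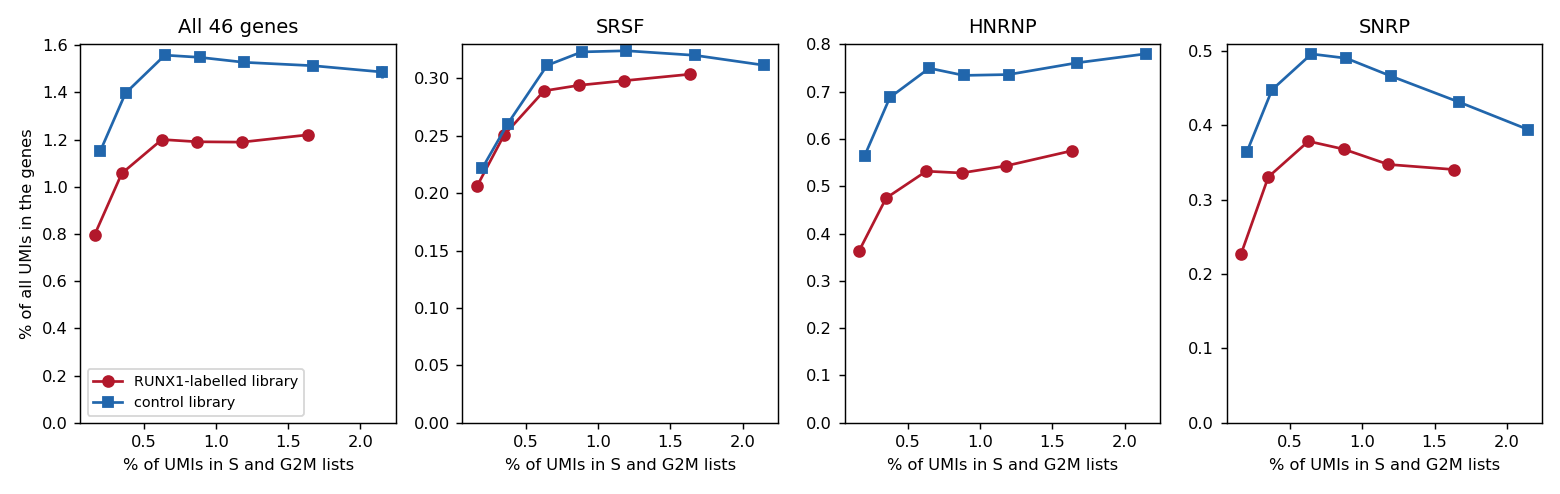
Percent of all UMIs in the 46 genes and in each family (y axes, from 0) against the mean percent of UMIs in the S and G2/M phase lists of each bin of cells (x axis); circles are the RUNX1-labelled library, squares the control, and vertical lines in the first panel 95% binomial intervals. The control lies above the RUNX1-labelled library in each bin of the first panel that is drawn for both. The SRSF shares are closest in the bin from 0.25 to 0.5%, at 0.251% in the RUNX1-labelled library against 0.261% in the control. They also lie near each other in the lowest bin (0.206% against 0.222%) and from 1.5 to 2% (0.304% against 0.320%).

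G2/M cells were set against S cells in a comparison chosen after the data were seen. Differences were small in both libraries, with member medians of 0.06 in the RUNX1-labelled library against 0.04 in the control and all-gene medians of 0.06 in each. The log2 ratio of G2/M over S cells was below 0 for 7 of 11 SNRP genes in the RUNX1-labelled library against 8 of 11 in the control, and for 36.3% of all genes in the RUNX1-labelled library and 36.8% in the control. It was above 0 for 15 of 19 HNRNP genes in the RUNX1-labelled library against 13 of 19 in the control, and for 63.7% of all genes in the RUNX1-labelled library and 63.2% in the control. Of all 41 measured members 15 were above 0 and 8 below 0 with the intervals of both libraries off 0, against 20.6% and 9.94% of all genes. Counting intervals narrow with depth, and over all cells 39 members reached 50 CPM, against 2860 of 7980 genes. These shares are thus not at equal depth. HNRNPUL1 was among the highest, at 0.25 in the RUNX1-labelled library against 0.33 in the control, and SNRPF among the lowest, at -0.16 in the RUNX1-labelled library against -0.18 in the control.

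**Figure D5:**
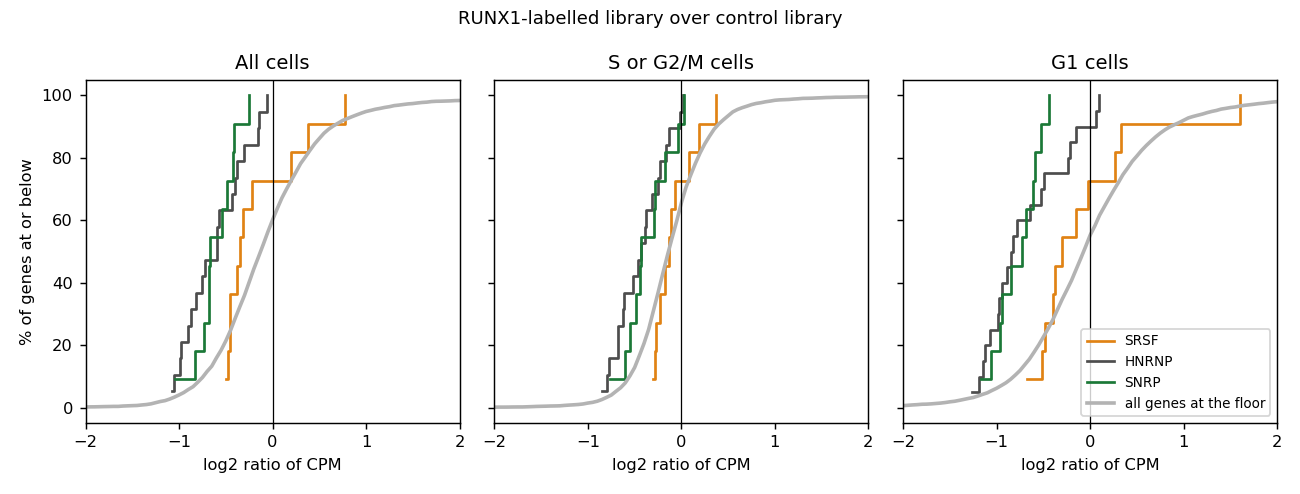
Cumulative percent of genes (y axis) at or below each log2 ratio of CPM (x axis), RUNX1-labelled library over control, for the SRSF, HNRNP and SNRP genes and for all genes at 10 CPM or more, in all cells, S or G2/M cells and G1 cells; ratios beyond 2 in size are not drawn. The HNRNP and SNRP lines lie left of that of all genes in each panel on this scale, with HNRNP and SNRP medians of -0.60 and -0.67 in all cells, and the SRSF line crosses it.

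Other splicing genes were read from 8 lists that hold no member, against the same 21.4% of all genes at -0.5 or less. Of 27 genes of the U1 and U2 snRNPs and the branch site 8 were at -0.5 or less and 0 at 0.5 or more, with a median of -0.38; the largest ratios in size were those of SF3B3 (-0.76), a subunit of the SF3B complex, and RBM17 (-0.70). Of 22 genes of the tri-snRNP and the LSM ring 7 were at -0.5 or less and 0 at 0.5 or more, with a median of -0.37, led by PRPF4 (-0.63) and SNRNP27 (-0.62). Of 27 genes of the PRP19 complex and of activation and catalysis 7 were at -0.5 or less and 0 at 0.5 or more, with a median of -0.28, led by the helicase DHX15 (-0.94) and the ubiquitin ligase PRPF19 (-0.83). The shares at -0.5 or less, 29.6%, 31.8% and 25.9%, were little above the background.

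The minor spliceosome removes the rare U12 introns. Of its 9 measured genes 0 passed 0.5 in either direction, the median was 0.08, and the largest ratios in size were those of SNRNP48 (-0.44) and SNRNP25 (-0.42). Of 18 genes that assemble the Sm ring, in the methylosome and the SMN complex, 6 were at -0.5 or less and 0 at 0.5 or more, with a median of -0.47, led by GEMIN5 (-0.85), which recognizes snRNA, and COPRS (-0.80), a partner of the arginine methylase PRMT5.

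Regulators and export factors were read in the same way. Of 24 genes of the exon junction complex and mRNA export 8 were at -0.5 or less and 0 at 0.5 or more, with a median of -0.37, led by UPF2 (-0.999), a factor of nonsense-mediated decay, and ALYREF (-0.95), the export adaptor. Of 36 hnRNPs under other symbols and other splicing regulators 13 were at -0.5 or less and 0 at 0.5 or more, with a median of -0.37, led by SYNCRIP (-0.94), a relative of HNRNPR, and MBNL1 (-0.82). Of 24 genes of SR protein kinases, import and SR-like proteins 7 were at -0.5 or less and 2 at 0.5 or more, with a median of -0.25. BCLAF1 was lowest at -0.97, with 96.7 CPM in the RUNX1-labelled library against 189.6 in the control. The 2 genes above 0.5 were the SR protein kinases CLK4 (24.6 CPM in the RUNX1-labelled library against 13.7 in the control, log2 ratio 0.84, interval 0.73 to 0.95) and CLK1 (60.5 CPM in the RUNX1-labelled library against 34.5 in the control, log2 ratio 0.81, interval 0.74 to 0.88). CLK1 was named after its value was seen. CLK4 and CLK1 were at 1.17 and 1.16 in G1 cells and at 0.40 and 0.34 in S or G2/M cells, as SRSF10 was at 1.60 and 0.37.

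Within the states, the medians of the 8 lists lay between -0.33 and 0.07 in S or G2/M cells and between -0.51 and 0.24 in G1 cells, the highest in each state being that of the minor spliceosome.

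For comparison with other large housekeeping groups, 9 of 36 proteasome subunit genes were at -0.5 or less and 0 at 0.5 or more, with a median of -0.33. Of 82 cytosolic ribosomal protein genes 8 were at -0.5 or less and 14 at 0.5 or more, with a median of 0.24. Over S or G2/M cells the proteasome median was -0.22 and the ribosomal protein median 0.23, against -0.30 for the SRSF, HNRNP and SNRP genes, and over G1 cells they were -0.42 and 0.16, against -0.63.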

How the data were processed

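Single-cell RNA-seq of 2 Nalm-6 libraries was analysed; the series' 10 ChIP-seq samples were not used here. The deposited values are raw counts of UMIs per gene and cell, which per the labels and the submitters' processing notes the authors made with Cell Ranger 3.0.2 from 10x Genomics data on hg19 with mm10, with no normalization. A deposited table of human and mouse UMI counts per barcode gave the same human totals for all 5491 barcodes of the RUNX1-labelled library and all 6073 of the control.

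Cells with more than 2000 and fewer than 6000 genes and under 20% mitochondrial UMIs were kept, which left out 691 barcodes of the RUNX1-labelled library and 475 of the control. Doublets were not removed, and leaving out the 5% of cells with most UMIs was tried instead. UMIs were summed over cells and scaled to a total of 1000000 (CPM), and genes at 10 CPM or more in 1 of the sums compared were measured. Log2 ratios had no pseudocount. Exact conditional binomial intervals for ratios, exact Poisson intervals for CPM and exact (Clopper-Pearson) intervals for shares are at 95% and cover counting error only. No test was made. The ratio computation was tested on simulated counts.

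Phases were called with scanpy 1.11.5 on the cells of both libraries at once, with 42 S phase and 54 G2/M phase genes, after thinning each cell to 8000 UMIs. This left out 612 shallower cells of the RUNX1-labelled library and 413 of the control. Without thinning, 61.1% of cells of the RUNX1-labelled library and 8.34% of the control were called G1. The phase scores of 273 cells of the RUNX1-labelled library and 285 of the control lay within 0.05 of the limit between G1 and the other phases. UMIs summed within a phase were unthinned.

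The genes and lists were chosen with earlier results of these data known. Named in full are the 3 lowest and 3 highest ratios of each family and the 2 largest ratios in size of each other list. The 1 gene named beyond this rule, CLK1, and examples within a state were chosen after their values were seen. Left out of the lists were 164 rows with pseudogene names and 4 with a hyphen. Gene positions are those of GENCODE v44lift37 on GRCh37, matched by Ensembl identifier for 45 of 46 genes. Alternatives changed the cell filter, scaling (edgeR 4.0.16 TMM factors, median of ratios, reduced totals, UMIs per cell), gene floor, thinning and the split of states.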

Additional observations from a re-analysis of the deposited data

Results flagged for a closer look

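Of the 41 members measured, 4 had log2 ratios of S or G2/M over G1 cells that lay on opposite sides of 0 in the libraries with both counting intervals off 0, against 5.34% of all genes, a difference that was not tested. Counting intervals narrow with depth, and a larger share of the members than of all genes reached 50 CPM. SRSF10 had -0.58 in the RUNX1-labelled library against 0.65 in the control. HNRNPA1 had 0.32 in the RUNX1-labelled library against -0.07 in the control. HNRNPC had 0.22 in the RUNX1-labelled library against -0.14 in the control. HNRNPM had 0.36 in the RUNX1-labelled library against -0.09 in the control. HNRNPA1, HNRNPC and HNRNPM, which package nascent transcripts, were thus higher in S or G2/M cells of the RUNX1-labelled library and slightly lower in those of the control.

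Rows left out by their names also held signal. HNRNPU-AS1, annotated antisense to HNRNPU, was at 35.0 CPM in the RUNX1-labelled library against 22.4 CPM in the control, a log2 ratio of 0.64 (0.55 to 0.73), while HNRNPU was at -1.05. The strand setting of the counting is not given in the sources used here, so reads of the pair may not be fully apart. HNRNPA1P48, a pseudogene name of HNRNPA1, was at 23.7 CPM in the RUNX1-labelled library against 20.9 CPM in the control, a ratio of 0.18 (0.09 to 0.28), while HNRNPA1 was at -0.43. Reads of near-identical copies may be split between such rows.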

How the results depend on the processing

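The median of the members stayed below 0 over all cells under every setting run, and scaling moved the size. Over all cells the median log2 ratio of -0.48 became -0.61 with TMM factors, -0.61 with the median of ratios, -0.28 with totals without mitochondrial and ribosomal protein genes, -0.27 with mean UMIs per cell and -0.52 without the 5% of cells with most UMIs. The 19 members at -0.5 or less became 30, 30, 12 and 12 on the first 4 of these settings. The 1 member at 0.5 or more became 2 on each of the third and the fourth. All genes moved too, from a median of -0.13 to -0.26, -0.26, 0.14 and 0.09 on the first 4 settings. Shares of all genes past 0.5 in size were not counted on other scales, so these counts of members have no background. In S or G2/M cells the median of -0.30 became -0.33 with TMM factors and -0.13 with reduced totals, and turned round to 0.26 with mean UMIs per cell, a setting added after the data were seen. There the 11 members at -0.5 or less became 6 with reduced totals and 0 per cell, and the 0 members at 0.5 or more became 1 and 7. The all-gene medians in S or G2/M cells were 0.07 with reduced totals and 0.42 per cell. In G1 cells the median of -0.63 became -0.43 with reduced totals and -0.31 per cell. The 26 members at -0.5 or less became 16 per cell, and the 1 member at 0.5 or more became 2 with reduced totals and 3 per cell. The all-gene medians in G1 cells were 0.16 with reduced totals and 0.25 per cell.

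For S or G2/M over G1 cells, the median of 0.46 in the RUNX1-labelled library became 0.52 without thinning, 0.58 with TMM factors, 0.35 with reduced totals and 1.04 per cell, and that of 0.20 in the control became 0.10 with reduced totals and 0.54 per cell. Family medians with TMM factors, the median of ratios and reduced totals were -0.47, -0.47 and -0.13 for SRSF, -0.73, -0.72 and -0.38 for HNRNP and -0.79, -0.79 and -0.41 for SNRP genes. With cells under 10% mitochondrial UMIs the SRSF median was -0.28 and the HNRNP median -0.53, and with a floor of 1 CPM the SNRP median was -0.62. The 46 genes held 1.01% of UMIs in the RUNX1-labelled library against 1.52% in the control over all deposited barcodes, 1.07% in the RUNX1-labelled library and 1.56% in the control under 10% mitochondrial UMIs, and 1.86% of reduced totals in the RUNX1-labelled library and 2.41% in the control. Reduced totals differ since mitochondrial and ribosomal protein genes took more of the RUNX1-labelled library, and values per cell since its cells were deeper. Thinning to 5000 UMIs and a split at 0.5% of UMIs in the phase lists moved the medians little. No median moved by as much as the counting interval of a typical single member reaches to 1 side. In G1 cells the median of -0.63 became -0.69 with thinning to 5000 UMIs and -0.66 with the split. The medians themselves have no counting interval. No paired analysis was possible because each group is 1 library. With 447 G1 cells in the control, ratios in G1 cells have the widest counting intervals.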
